A study of Homo sapiens with 12 samples.

Results

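The genes described here are 10 members of the BCL2 family, the proteins that decide whether the outer mitochondrial membrane is breached during apoptosis. They were chosen by name from the 60708 gene rows of each of the 2 count matrices, as 6 BH3-only genes (BBC3, HRK, PMAIP1, BCL2L11, BIK and BID), 2 pro-survival genes (MCL1 and BCL2L1) and 2 effector genes (BAX and BAK1). All 10 passed the filter on low counts in both experiments. HCT116, an established human colon cancer cell line of wild-type (WT) genotype per the labels, was treated for 24 h with 5 µg/mL of oligomycin A (OA), which blocks ATP synthase in mitochondria, or of tunicamycin (TN), an inhibitor of N-glycosylation in the endoplasmic reticulum. Each treatment had its own control cultures that received the solvent DMSO for 24 h, and each of the 4 groups holds 3 libraries labelled as biological replicates. No resveratrol was given in any of these libraries. The dose is the one in the labels, and the study's methods give a higher one for OA.

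In the intrinsic pathway of apoptosis, BH3-only proteins are the sensors. Each is raised, modified or cleaved under a particular stress, and then binds the groove of the pro-survival proteins or activates the effectors. Pro-survival proteins hold the BH3-only proteins and effectors in check, and once free, BAX and BAK1 form pores that let cytochrome c out of the mitochondrion and start the caspase cascade. Several BH3-only genes are controlled at the level of transcription, BBC3 and PMAIP1 by p53 and by the ATF4 and CHOP branch of the stress response, and BCL2L11 by FOXO3 and CHOP, whereas the effectors and BID are governed mainly by the state of the protein.

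The libraries held 9884124 to 24983573 counted reads, and the treated ones held less than every DMSO library of their own experiment. The members together received 6233 to 14825 reads per library. RN7SL1, the RNA of the signal recognition particle, took 6.02% to 8.11% of the reads in DMSO libraries, 8.40% to 17.9% in OA and 9.22% to 13.3% in TN. In some libraries the deviation of a gene from the mean of its group went with transcript GC content, with r between -0.60 and 0.62 over the 12 libraries. The part of either in the changes below was not tested, except that each change was also fitted with GC offsets. The summed level of 8 colon epithelial markers was 4088 to 6062 CPM (reads scaled to the library's TMM-adjusted size) in the OA experiment's DMSO libraries and 4962 to 8307 with OA, and 4151 to 5626 and 4601 to 8499 CPM in the TN experiment. CDH1, which encodes E-cadherin, was the gene of this list called in the fits without a block. Its log2 fold changes were 1.81 (SE 0.31, adjusted p 0.0271 in edgeR) in OA and 1.69 (SE 0.21, adjusted p 0.00677 in edgeR) in TN. With the replicate number as a block, CDX2 was also called lower in OA (adjusted p 0.0338 in edgeR) and KRT18 higher in TN (adjusted p 0.0225 in edgeR). Of the others, VIL1 and LGALS4 were at or near 0 in every library, and PTPRC and CD3E, which define white blood cells and T cells, were at or near 0. The summed level of 8 markers of other cells was 1.98 to 3.10 CPM in the OA experiment's DMSO libraries and 5.91 to 15.3 with OA, without overlap, and 4.21 to 6.08 and 4.79 to 7.48 CPM in the TN experiment. Only COL1A1 and ACTA2, genes of fibroblasts and smooth muscle, had enough reads to be tested. COL1A1 was at 1.835, 1.15 and 2.19 CPM in DMSO and 5.16, 12.4 and 3.42 in OA (log2 fold change 2.02, SE 0.54, adjusted p 0.0723 in edgeR), and ACTA2 had a log2 fold change of 1.24 (SE 0.54, adjusted p 0.214 in edgeR). DESeq2 called 1 gene of this list in OA, beside 1927 of all 14681 genes. With the replicate block edgeR called COL1A1 higher in OA (adjusted p 0.025). The part of either list of markers in the members' changes was not tested.

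Proximal promoter sequence is shown for genes with a RefSeq window whose treated and DMSO levels did not overlap, in OA and in TN alike. The groups did not overlap in 31.8% of all genes in OA and 32.6% in TN. Of the genes shown, BCL2L1 and BID passed the edgeR test without a block in neither experiment. RefSeq (GRCh38.p14) gave windows for 8 of the 10 members, and BIK and MCL1 had none. BID had 5 windows and BCL2L1 had 2, for different start sites, and only the window nearest the annotated 5′ end of the gene is shown. The BID window used here was 47.6% G and C, and the BID windows not shown were 68.8% to 78.0%. Each line is the stretch of the window that lies before the first annotated base of the gene, 5′ to 3′ on the strand of the gene, in lower case. Capitals mark the only match to any of the motifs searched.
BBC3 (chr19:47232767-47232917, minus strand): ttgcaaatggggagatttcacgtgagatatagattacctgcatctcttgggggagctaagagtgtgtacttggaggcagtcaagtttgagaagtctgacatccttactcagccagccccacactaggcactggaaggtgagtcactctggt
HRK (chr12:116881442-116881691, minus strand): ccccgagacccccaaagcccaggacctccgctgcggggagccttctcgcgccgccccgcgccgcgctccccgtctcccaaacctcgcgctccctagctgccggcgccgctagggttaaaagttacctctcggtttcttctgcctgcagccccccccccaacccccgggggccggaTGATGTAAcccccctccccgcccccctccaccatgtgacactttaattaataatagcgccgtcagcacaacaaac
BCL2L1 (chr20:31723990-31724213, minus strand): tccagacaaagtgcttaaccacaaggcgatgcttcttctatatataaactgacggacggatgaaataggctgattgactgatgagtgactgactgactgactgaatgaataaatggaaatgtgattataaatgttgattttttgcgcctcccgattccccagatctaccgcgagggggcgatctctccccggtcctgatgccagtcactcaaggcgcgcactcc
BID (chr22:17774771-17774915, minus strand): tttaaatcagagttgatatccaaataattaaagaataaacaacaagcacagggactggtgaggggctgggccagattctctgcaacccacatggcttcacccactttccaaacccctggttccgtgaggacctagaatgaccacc
All windows, also those not shown, were searched over their whole 250 bases on both strands. The motifs were the C/EBP-ATF element TGATGNAA, to which ATF4 and CHOP dimers bind, and the ER stress element. The others were the FOXO core GTAAACA and the p53 response element with both its half-sites. HRK held TGATGTAA, 75 to 68 bases before the start, and 3.16% of 34788 RefSeq windows held the element. BCL2L11 held GTAAACA 223 to 217 bases before its RefSeq start at 111120914, and 2.98% of windows held this core. The match lies inside the gene as annotated by Gencode, which begins at 111119378. The ER stress element, in 0.0747% of windows, and the p53 element, in 0.0259%, were in no member's window. A match is a string of letters and not a measured binding site, and a missing match says only that these letters are not in these windows.

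Levels per kb were divided by the union of the exons of all annotated transcripts, and the order given here holds for that length only. The union was 4420 bases for BID and 2587 for BAX, whose longest transcripts had 2495 and 1358. For BCL2L1 it was 4197 against 3257 bases, and for BIK both were 951. MCL1 had the highest mean level of the members per kb of exon in the DMSO libraries of both experiments. In the OA experiment it was at 37.5 ± 2.03 CPM per kb of exon (SD, n = 3) and BCL2L1 at 27.2 ± 5.26. BIK followed at 22.8 ± 4.82 and BAK1 at 18.2 ± 3.495, BID stood at 15.3 ± 2.07, PMAIP1 at 12.1 ± 5.18 and BAX at 10.5 ± 1.93. The ranges of neighbours in this order overlapped from BCL2L1 down to BAX, whereas MCL1 was above BCL2L1 in every library. The members at the foot of the order were BBC3 at 3.44 ± 1.13, BCL2L11 at 1.66 ± 0.345 and HRK at 0.426 ± 0.0910 CPM per kb, each with no overlap with the next. The BH3-only genes that rose with OA were thus among the 3 lowest of the members in DMSO. In the TN experiment's DMSO libraries MCL1 was at 39.8 ± 3.82 CPM per kb, and 2 BH3-only genes, PMAIP1 (10.4 to 43.3 CPM per kb, SD 18.7) and BIK at 21.1 ± 3.55, had higher means than BCL2L1 at 20.3 ± 2.78. The ranges of PMAIP1 and BIK overlapped that of BCL2L1.

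OA against DMSO asks what loss of ATP synthase activity does to the transcripts of each role. BBC3 and HRK rose, BCL2L1 lay above and BID below DMSO without passing the test, and the effectors and MCL1 lay near their DMSO level. With the quasi-likelihood test of edgeR, p-values adjusted over 14681 genes by Benjamini-Hochberg, 2 of the 10 members were called, both higher, beside 4.48% of all genes tested in either direction, 2.76% in the higher and 1.72% in the lower direction. With the replicate number as a block, although the OA numbers were not taken as pairing, 5 members were called, 4 higher and 1 lower, beside 26.7% of all genes, 11.7% higher and 15% lower. In 4 of the 10 members the treated and DMSO libraries did not overlap, BBC3, HRK and BCL2L1 higher and BID lower, beside 31.8% of all genes, 16.3% higher and 15.5% lower. In bulk libraries a gene's rise in every cell and its rise in some of the cells cannot be told apart. The plot of the members by library gives all 12 values of each gene.

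**Figure D1:**
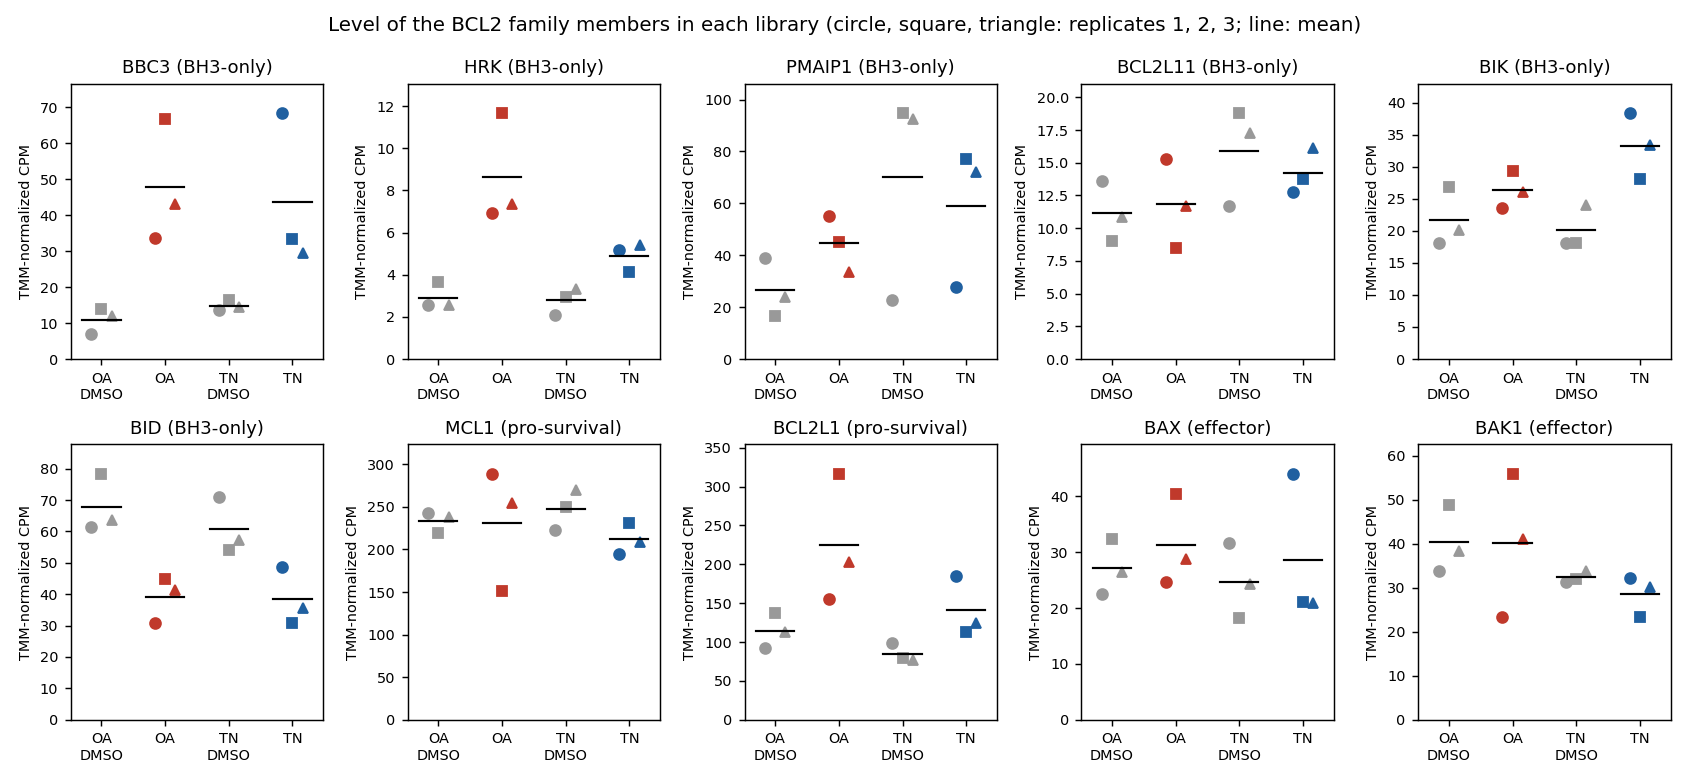
CPM normalized by the trimmed mean of M values (TMM) on a linear axis from 0, for each of the 10 members in the 4 groups; circles, squares and triangles are replicates 1, 2 and 3 and the line is the mean of 3 libraries. BBC3 was at 33.6 to 66.7 CPM in OA against 6.97 to 14.0 in its DMSO libraries, and PMAIP1 split the TN experiment by replicate number.

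BBC3 encodes PUMA, a BH3-only protein that binds every pro-survival family member. It lies on chromosome 19 from 47220822 to 47232766, minus strand (hg38). It was at 6.97, 14.0 and 11.9 CPM in DMSO replicates 1 to 3 and at 33.6, 66.7 and 43.2 CPM in OA. The lowest OA library was above the highest DMSO library, and replicate 2 was the highest library of both groups. The log2 fold change was 2.12 (SE 0.38), a 4.36-fold rise, with an adjusted p of 0.0281 (edgeR). Treated over same-numbered DMSO ratios were 4.81, 4.75 and 3.65. The transcript is rich in G and C (69.7%), and with GC offsets the log2 fold change was 2.13. The call held without OA replicate 1 or 2, at an adjusted p (edgeR) of 0.0212 and 0.0296. It was lost without any one of the other libraries. The adjusted p (edgeR) was 0.106, 0.101 and 0.158 without DMSO replicate 1, 2 or 3 and 0.0793 without OA replicate 3, at log2 fold changes of 1.91, 2.38, 2.18 and 2.18. In the same order, those fits called 5, 3, 3 and 91 of all genes tested, against 658 in the fit of all libraries.

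HRK encodes Harakiri, a BH3-only protein best known from neurons and blood cells deprived of growth factor. It lies on chromosome 12 from 116856144 to 116881441, minus strand, and it is the gene with the TGATGTAA match shown above. It was at 2.57, 3.64 and 2.54 CPM in DMSO and at 6.93, 11.7 and 7.36 CPM in OA, from 49 to 92 and 71 to 117 reads. The groups did not overlap although the level was the lowest of the members per kb of exon. OA raised HRK by 1.56 (SE 0.35) on the log2 scale, 2.95-fold, with an adjusted p of 0.0482 (edgeR), just inside the threshold of 0.05. Leaving out any library other than OA replicate 1 took the call away, with log2 fold changes of 1.28 to 1.80. The adjusted p (edgeR) was then 0.180, 0.124 and 0.240 without DMSO replicate 1, 2 or 3, and 0.0600 and 0.105 without OA replicate 2 or 3. Of all genes tested, these fits called 5, 3, 3, 857 and 91 in that order.

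PMAIP1 encodes NOXA, which binds mainly MCL1 and promotes its breakdown. It was at 38.9, 16.7 and 24.1 CPM in DMSO and at 55.1, 45.2 and 33.4 CPM in OA. All 3 OA libraries were above the DMSO mean, but OA replicate 3 lay below DMSO replicate 1, so the groups overlapped. A log2 fold change of 0.75 (SE 0.36) did not pass the test, with an adjusted p of 0.256 (edgeR), whereas with the replicate block it passed at 0.0304 (edgeR). The same-numbered ratios of PMAIP1 were 1.42, 2.71 and 1.39. BID, which links death receptors to mitochondria once caspase 8 has cleaved it, was at 61.6, 78.3 and 63.6 CPM in DMSO and at 30.9, 44.9 and 41.3 CPM in OA. Every OA library of BID was below every DMSO library, and the same-numbered ratios were 0.502, 0.573 and 0.649. The log2 fold change of BID was -0.80 (SE 0.25), with an adjusted p of 0.109 (edgeR). BID passed under 6 of 9 alternative settings, with log2 fold changes of -1.03 to -0.33 over the 9. BIK and BCL2L11 overlapped with DMSO and did not pass. BIK, a BH3-only protein that sits at the endoplasmic reticulum, was at 18.0 to 26.8 CPM in DMSO and 23.6 to 29.3 in OA (log2 fold change 0.28, SE 0.26, and 0.066 with scaling to total counts or 0.77 with ACTB), with same-numbered ratios of 1.31, 1.09 and 1.29. BCL2L11, which encodes BIM, was at 9.01 to 13.6 and 8.48 to 15.3 CPM (0.08, SE 0.32), and its direction turned with scaling to total counts (-0.07).

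Neither pro-survival gene passed the test in OA, and their difference from each other was not tested. BCL2L1 encodes the long-lived protein BCL-XL, and by splicing also the pro-death form BCL-XS, which gene counts do not separate. It was at 92.9, 137.0 and 112.5 CPM in DMSO and at 155, 316 and 202 CPM in OA. The lowest OA library was above the highest DMSO library, and replicate 2 was again the highest of both groups. The log2 fold change of BCL2L1 was 0.98 (SE 0.31), with an adjusted p of 0.113 (edgeR), and it passed under 5 of 9 alternative settings. Without OA replicate 1 it was 0.0493 (edgeR). The antisense lncRNA ABALON covers 41.3% of the exon bases of BCL2L1 and had 13 to 54 reads per library of the OA experiment. MCL1, whose protein turns over within minutes to hours, was at 243, 219 and 238 CPM in DMSO and at 289, 151 and 255 CPM in OA. OA replicate 2 was the lowest of the 6 libraries and OA replicate 1 the highest, so that the SD over OA libraries was 71.6 CPM against 12.6 in DMSO. The mean hardly moved (log2 fold change -0.01, SE 0.28, and positive at 0.42 with scaling to ACTB).

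The effectors overlapped between groups. BAX was at 22.4, 32.4 and 26.5 CPM in DMSO and at 24.6, 40.5 and 28.8 CPM in OA (log2 fold change 0.21, SE 0.29, and -0.04 with scaling to total counts). BAK1 was at 33.8, 48.9 and 38.3 CPM in DMSO and at 23.4, 55.9 and 41.1 CPM in OA (-0.01, SE 0.35, and 0.47 with scaling to ACTB). Both genes were highest in replicate 2 and lowest in replicate 1 in both groups.

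TN against DMSO asks the same of stress that begins in the endoplasmic reticulum. BBC3 rose again, HRK, BIK and BCL2L1 lay above and BID below DMSO in every library, and PMAIP1 differed more between replicate numbers than between DMSO and TN. With edgeR over 14432 genes, 1 of the 10 members was called, higher, beside 6.99% of all genes in either direction, 3.65% in the higher and 3.34% in the lower direction. The groups did not overlap in 5 of the 10 members, 4 higher and 1 lower, beside 32.6% of all genes, 15.9% higher and 16.8% lower. Same-numbered DMSO and TN libraries deviated from their group means together, with r of 0.58, 0.34 and 0.36 over genes. With the replicate number as a block, 4 members were called by edgeR, beside 27.1% of all genes in either direction. BBC3, BIK and BCL2L1 were higher, beside 11.8% of genes, and BID was lower, beside 15.3%.

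BBC3 was at 13.6, 16.3 and 14.4 CPM in DMSO and at 68.4, 33.3 and 29.4 CPM in TN. All TN libraries were above all DMSO libraries, and replicate 1 alone was more than 2-fold above the other TN libraries. With TN it was 2.95-fold higher, a log2 fold change of 1.56 (SE 0.35), with an adjusted p of 0.0418 (edgeR). The same-numbered ratios were 5.04, 2.04 and 2.04. TN replicate 1 was also the library whose deviations followed GC content most (r = 0.62), and with GC offsets the log2 fold change was 1.46. Without that library the log2 fold change was 1.13 and the adjusted p 0.00725 (edgeR). The call was lost without any one of the other libraries, with an adjusted p (edgeR) of 0.0971, 0.122 and 0.137 without DMSO replicate 1, 2 or 3 and of 0.0823 and 0.0528 without TN replicate 2 or 3. Those fits called 473, 183, 151, 301 and 310 of all genes tested, against 1009 in the fit of all libraries.

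HRK was at 2.08, 2.96 and 3.34 CPM in DMSO and at 5.16, 4.15 and 5.41 CPM in TN. The groups did not overlap, with 38 to 52 reads in DMSO and 45 to 63 in TN, but the log2 fold change of 0.81 (SE 0.31) did not pass, with an adjusted p of 0.162, or 0.0967 with the block, (edgeR). BIK was at 18.1, 18.1 and 24.0 CPM in DMSO and at 38.4, 28.1 and 33.4 CPM in TN. Each TN library of BIK was above each DMSO library, and the log2 fold change was 0.73 (SE 0.23), with an adjusted p of 0.104, or 0.0196 with the block, (edgeR). BID was at 71.0, 54.0 and 57.4 CPM in DMSO and at 48.8, 30.9 and 35.6 CPM in TN. Every TN library of BID was below every DMSO library, and the same-numbered ratios were 0.687, 0.572 and 0.620. The log2 fold change was -0.66 (SE 0.24), with an adjusted p of 0.151, or 0.0128 with the block, (edgeR). BID passed in TN under 4 of 9 alternative settings, with log2 fold changes of -0.84 to -0.34 over the 9. The smallest change, -0.34, came with scaling to ACTB (adjusted p 0.366 in edgeR).

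PMAIP1 was at 22.8, 94.8 and 92.4 CPM in DMSO replicates 1 to 3 and at 27.6, 76.9 and 72.2 CPM in TN. The libraries numbered 1 were low and those numbered 2 and 3 high in both groups, a gap larger than any shift with treatment. The same-numbered ratios were 1.21, 0.812 and 0.782. Over all libraries the log2 fold change was -0.25 (SE 0.58), with an adjusted p of 0.839 (edgeR), and it was 0.05 with scaling to ACTB. Without both libraries numbered 1, a setting chosen after these values were seen, the log2 fold change was -0.26 and the adjusted p 0.0244 (edgeR), with 6267 of all genes and 5 members called. BCL2L11 was also lowest in DMSO replicate 1 (11.7 CPM against 18.8 and 17.3) and was at 12.8 to 16.1 CPM in TN (log2 fold change -0.16, SE 0.26, and 0.14 with scaling to ACTB).

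**Figure D2:**
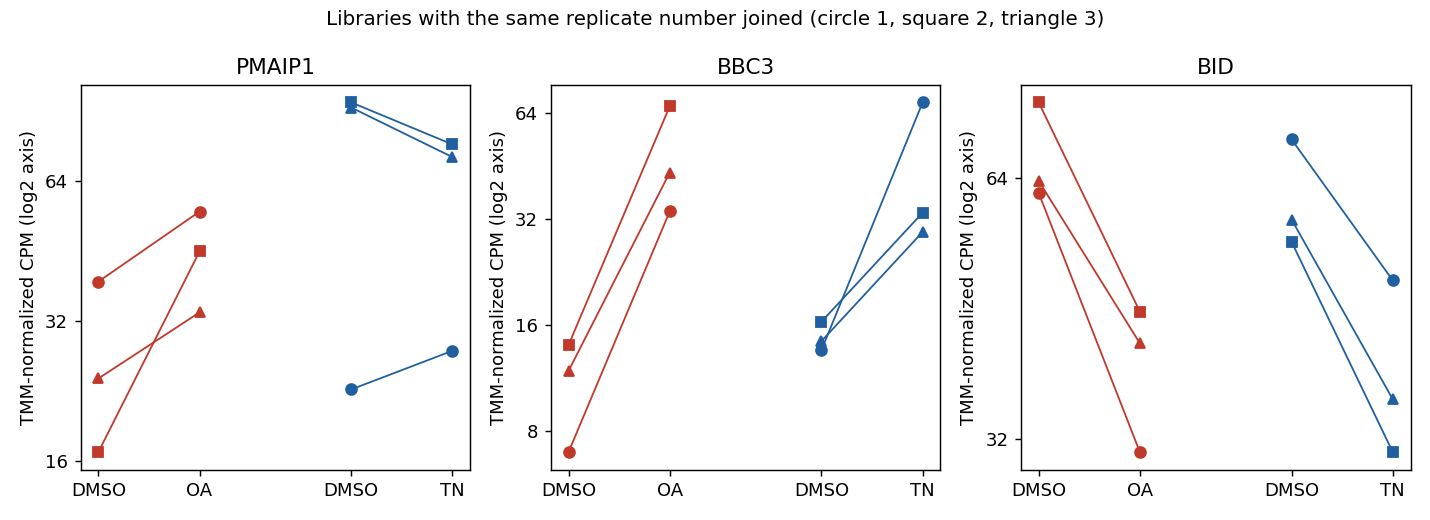
TMM-normalized CPM on a log2 axis for PMAIP1, BBC3 and BID, with DMSO and treated libraries of the same replicate number joined by a line (circle 1, square 2, triangle 3; red the OA experiment, blue the TN experiment). All 6 lines of BBC3 go up and all 6 of BID go down, while PMAIP1 in the TN experiment goes from 22.8 to 27.6 CPM in replicate 1 and from 94.8 to 76.9 in replicate 2.

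BCL2L1 was at 98.5, 79.3 and 77.5 CPM in DMSO and at 185, 113 and 124 CPM in TN. The groups did not overlap, and the log2 fold change was 0.72 (SE 0.25), with an adjusted p of 0.131, or 0.0115 with the block, (edgeR). MCL1 was at 223, 250.4 and 270.0 CPM in DMSO and at 194, 232 and 209 CPM in TN. All 3 TN libraries of MCL1 were below the DMSO mean but overlapped its range (log2 fold change -0.23, SE 0.19, and 0.10 with scaling to ACTB). The effectors overlapped as well. BAX was at 18.2 to 31.7 CPM in DMSO and 21.0 to 44.03 in TN (0.21, SE 0.37), and BAK1 at 31.3 to 33.9 and 23.4 to 32.1 CPM (-0.18, SE 0.21, and 0.13 with scaling to ACTB).

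**Figure D3:**
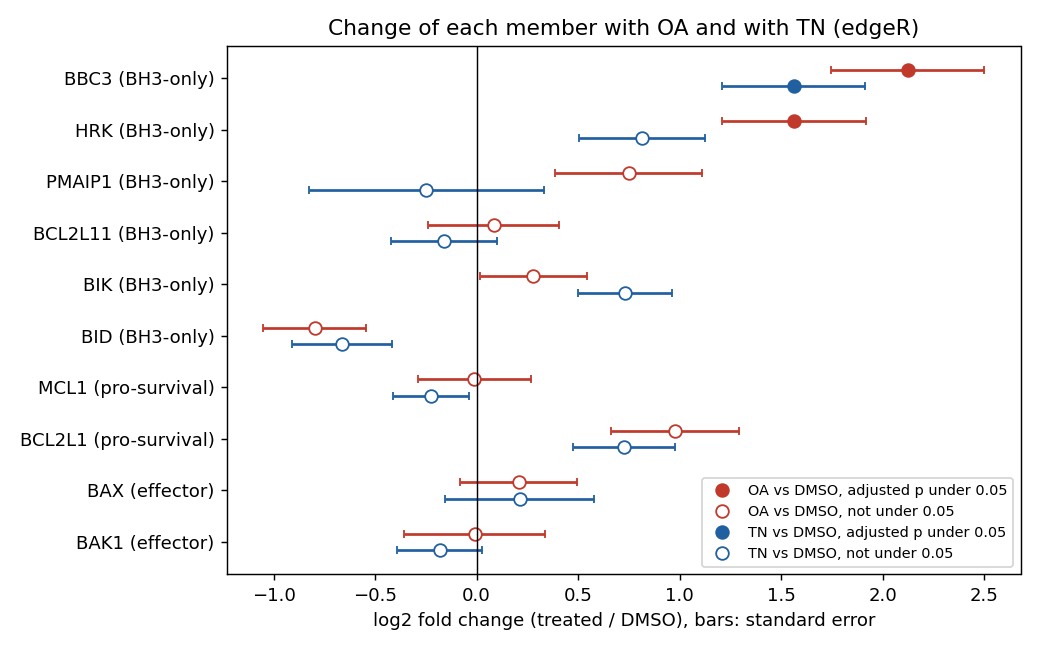
Log2 fold change of each member, treated over DMSO, from edgeR, with bars of 1 standard error; red is OA, blue is TN, and filled points have an adjusted p under 0.05 over all genes tested. Filled points are BBC3 in both experiments (2.12 and 1.56) and HRK in OA (1.56), and BID lies left of 0 in both (-0.80 and -0.66). These fits carried no replicate block. With it, BIK, BCL2L1 and BID also passed in TN, and PMAIP1, BCL2L1 and BID in OA.

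Set side by side by role, the medians of the log2 fold changes in OA were 0.51 for the 6 BH3-only genes, 0.48 for the 2 pro-survival genes and 0.10 for the 2 effectors, beside -0.02 over all genes tested. In TN they were 0.28, 0.25 and 0.02, beside -0.03 over all genes. The effector median turned with the scaling, at -0.16 in OA and -0.17 in TN with total counts and at 0.58 and 0.32 with ACTB. The BH3-only median stands for members that lay on both sides of 0, from -0.80 (BID) to 2.12 (BBC3) in OA and from -0.66 (BID) to 1.56 (BBC3) in TN. The 2 pro-survival genes lay apart as well, BCL2L1 at 0.98 and MCL1 at -0.01 in OA. The effectors lay closer together, BAX at 0.21 and BAK1 at -0.01 in OA.

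Summed over members per kb of exon, the BH3-only genes made 52.3 to 59.8 CPM per kb in the OA experiment's DMSO libraries and 68.4 to 85.6 with OA. The pro-survival genes made 61.2 to 67.9 and 83.3 to 99.7, and the effectors 24.0 to 34.6 and 20.1 to 40.9. Since the sums of the first 2 roles were both higher, the share of the BH3-only genes in the sum of all 10 members was 36.1% to 39.4% in DMSO and 36.5% to 40.7% with OA, which overlapped. In the TN experiment the BH3-only sum was 51.8, 83.0 and 88.0 CPM per kb in DMSO and 84.8 to 88.6 with TN. The low value was DMSO replicate 1, the library in which PMAIP1 was at 10.4 CPM per kb against up to 43.3 in its fellows. The pro-survival sum was 59.1 to 61.8 in DMSO and 63.2 to 75.3 with TN, without overlap, and the BH3-only share was 37.7% to 50.7% and 45.2% to 51.1%. These sums carry no test.

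**Figure D4:**
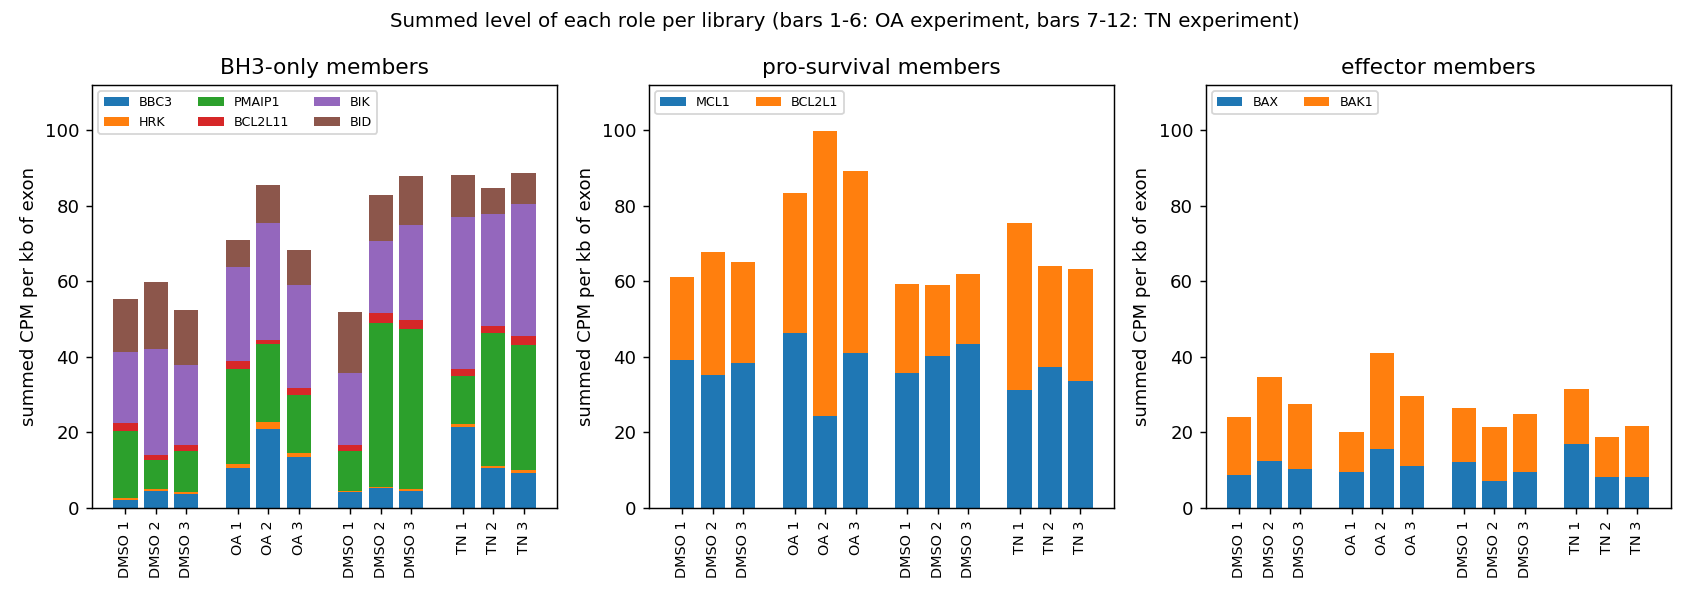
Stacked bars of CPM per kb of exon for the BH3-only, pro-survival and effector members in each of the 12 libraries, bars 1 to 6 from the OA experiment and 7 to 12 from the TN experiment. The BH3-only bars reach 68.4 to 85.6 with OA and 52.3 to 59.8 in its DMSO libraries, and the low bar among the TN experiment's libraries is DMSO replicate 1 at 51.8.

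The OA and TN changes were compared directly by the interaction in a fit over all 12 libraries. None of the members passed, nor did any of 15429 genes, at 0% called by edgeR. At an unadjusted p under 0.05 it found 348 genes and 0 members, and DESeq2 called 2 genes and 0 members. With the replicate block PMAIP1 had an unadjusted p of 0.0105 (edgeR, adjusted 0.921), and with the block and GC offsets BBC3, PMAIP1 and BIK had unadjusted p of 0.0446, 0.0378 and 0.0366 (edgeR, adjusted 0.567, 0.556 and 0.554). The largest differences, OA minus TN on the log2 scale, were 0.89 (SE 0.75) for PMAIP1, 0.65 (SE 0.41) for HRK, -0.53 (SE 0.31) for BIK and 0.49 (SE 0.48) for BBC3. A p that misses the threshold does not show that the changes were alike. OA and TN have separate DMSO libraries, and the experiment and the treatment cannot be told apart in this contrast.

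The genes most like BBC3 over the 12 libraries, by Pearson's r of log2 CPM relative to the experiment's own DMSO mean among 14072 genes, were C1orf210 (r = 0.99), SLC6A9 (0.98) and GPRC5A (0.98). Those most like HRK were SDC4, LOXL1-AS1 and CEBPD (0.98, 0.98 and 0.97), and those most like PMAIP1 were BIRC3, KLF5 and RAPH1 (0.98, 0.97 and 0.96). Among members, BBC3 was most like BCL2L1 (0.94) and HRK (0.92). The libraries share treatment, depth and GC bias, so these values describe a pattern and carry no p. BIRC3, an inhibitor of apoptosis induced by NF-kB, was at 0.821, 21.1 and 26.8 CPM in the DMSO replicates of the TN experiment, so that replicate 1 was the low library of BIRC3 as it was of PMAIP1.

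Of the other BCL2 family genes, 5 of 7 had enough reads to be tested, and none was called in either experiment by edgeR. In each experiment 1 had an unadjusted p under 0.05 (edgeR) and 1 was called by DESeq2. Over all genes, 3415 of 14681 in OA and 3504 of 14432 in TN had such a p, and DESeq2 called 1927 and 2162. BCL2L2, which encodes the pro-survival BCL-W, had the lowest p, with log2 fold changes of 1.15 (SE 0.28) in OA and 0.87 (SE 0.24) in TN. Its adjusted p was 0.0612 in OA and 0.0738 in TN, or 0.00685 in OA and 0.0113 in TN with the block, (edgeR). BCL2 itself was at -0.86 (SE 0.53) and -0.90 (SE 0.45), BMF at 1.44 (SE 0.77) and 0.80 (SE 0.44), BAD at -0.20 and 0.23, and BOK at -0.01 and 0.16, none of them past the test. BCL2A1 and BCL2L10 were too low to be tested.

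Downstream of the mitochondrion, 1 of 16 genes of the caspase cascade was called in OA and none in TN by edgeR, with 5 in TN at an unadjusted p under 0.05 and 2 called by DESeq2. Over all genes, edgeR called 4.48% in OA and 6.99% in TN. An unadjusted p under 0.05 (edgeR) was found for 3415 of 14681 genes in OA and 3504 of 14432 in TN. DESeq2 called 1927 of all genes in OA and 2162 in TN. The called gene of the list was BIRC5, which encodes survivin, at -1.42 (SE 0.29, adjusted p 0.0396 (edgeR)). In TN it was at -1.47 (SE 0.48), with an adjusted p of 0.113, or 0.00114 with the block (edgeR). With the block, 6 of the 16 were lower in OA, and in TN 6 were lower and 1 was higher, CASP9, the initiator caspase (0.70, SE 0.21, without the block). Over all genes, the block called 15% lower in OA, and 15.3% lower and 11.8% higher in TN. The median log2 fold change of the list was -0.49 in OA and -0.47 in TN. Of 7 genes that act on the family's proteins, such as ubiquitin ligases of MCL1, none was called in either experiment by edgeR or DESeq2, with 1 in OA and 0 in TN at an unadjusted p under 0.05, and 1 was called in TN with the block.

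Among 10 transcription factors that act on BH3-only genes, 5 were called higher and 1 lower in OA, and 3 higher and 1 lower in TN. The shares over all genes were 2.76% higher and 1.72% lower in OA, and 3.65% and 3.34% in TN. DDIT3, which encodes CHOP, was at 8.39, 9.68 and 7.73 CPM in DMSO and at 220, 574 and 179 CPM in OA. It was at 10.7, 18.6 and 21.7 CPM in DMSO and 409, 305 and 309 CPM in TN, and had the lowest p of this list in both experiments (log2 fold changes of 5.23, SE 0.51, and 4.33, SE 0.34). Its log2 fold change was larger than that of every member in both experiments. Of 11 tested targets of ATF4 and CHOP outside the family, 9 were called higher in OA and 9 in TN, with medians of 3.08 and 2.67. DDIT4, an inhibitor of mTORC1 signalling, rose by 4.58 (SE 0.32) and 3.68 (SE 0.29) on the log2 scale. Of 14 p53 targets outside the family, 1 was called in OA, CDKN1A, the cell cycle inhibitor p21 (2.05, SE 0.42, adjusted p 0.0396 (edgeR)). None was called in TN by edgeR, where 4 had an unadjusted p under 0.05 and DESeq2 called 2. Of all 14432 genes tested in TN, 3504 had such a p and DESeq2 called 2162. CDKN1A was at 1.23 (SE 0.34) in TN, with an adjusted p of 0.0747, or 0.00247 with the block (edgeR). The medians of the 14 were -0.14 in OA and 0.05 in TN. With the block, 3 of the 14 were higher and none lower in OA, and 3 were higher and 2 lower in TN, among them TP53INP1 (0.99, SE 0.27, without the block). Over all genes, the block called 11.7% higher and 15% lower in OA, and 11.8% and 15.3% in TN.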

How the data were processed

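Gene expression was measured by RNA-seq of total RNA from 12 HCT116 cultures. The authors aligned reads with STAR to hg38 and deposited raw counts per gene in 1 matrix per experiment. The labels name a stranded total RNA kit, and the counted strand is not given in the sources used here. The authors' tables of DESeq2 log2 fold changes, p-values and adjusted p-values were not used. Counts were tested per experiment with edgeR 4.0.16 (R 4.3.3; filterByExpr, TMM, quasi-likelihood F test, Benjamini-Hochberg adjustment over all genes tested, threshold 0.05), as treated against DMSO. The interaction used all 12 libraries. The script was tested on simulated counts. CPM values are TMM-normalized, and levels per kb use the exon union of Gencode 44, which may differ from the annotation counted. All 10 members are named; from each other list, the tested gene with the lowest p in each experiment and every other BCL2 family gene may be named. BIRC3 was given levels after its likeness to PMAIP1 was seen. The members and lists were chosen with earlier results of these data known.

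Alternatives were DESeq2 1.42.0, its size factors, scaling to total counts or to ACTB, no filter, 12 libraries in 1 fit, GC offsets (loess, span 0.3), a replicate block, and each library left out in turn. Same-numbered libraries shared deviations from their group means in TN (r of 0.58, 0.34 and 0.36), which was taken as pairing, since every r was over 0.1, although TN replicate 2 was as close to DMSO replicate 3 (0.35) and TN replicate 3 to DMSO replicate 2 at 0.31. In OA the third r was under 0.1. The main fits of both experiments and the main interaction nonetheless carried no block, and results with the block are given beside them. The labels do not say that a number marks a shared culture day. No libraries were duplicates. Antisense genes overlap BBC3, BCL2L11, MCL1, BCL2L1 and BAK1, and without a stated strand their reads could not be told apart.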

Additional observations from a re-analysis of the deposited data

How the results depend on the processing

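The counts of calls moved most. In OA, where 2 members and 658 genes were called, 3 members were called with scaling to total counts, to ACTB and with 12 libraries in 1 fit. Members called in OA were 4 with DESeq2 and with GC offsets and 5 with the replicate block, alone or with GC offsets. All genes called in OA were 1425 with scaling to ACTB, 1572 with no filter, 1681 with 12 libraries in 1 fit, 1927 with DESeq2, 2966 with GC offsets, 3914 with the replicate block and 4385 with the block and GC offsets. In TN, where 1 member and 1009 genes were called, members called were 2 with scaling to total counts, to ACTB and with DESeq2, 4 with the block, GC offsets or both, and 5 without both libraries numbered 1. All genes called in TN were 1648 with no filter, 2162 with DESeq2, 3355 with GC offsets, 3915 with the block, 5661 with the block and GC offsets and 6267 without both libraries numbered 1. The cause was not tested.

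Leaving out 1 library at a time gave 0 to 3 members and 3 to 1179 genes in OA (3 without DMSO replicate 2 or 3, 5 without DMSO replicate 1, 91 without OA replicate 3, 1179 without OA replicate 1), and 0 to 2 members and 151 to 2361 genes in TN (151 to 473 without 1 DMSO library, 301 and 310 without TN replicate 2 or 3, 2361 without TN replicate 1). The medians ranged in OA from 0.44 to 0.74 (BH3-only), 0.43 to 0.58 (pro-survival) and -0.19 to 0.29 (effector), and in TN from 0.16 to 0.45, 0.20 to 0.28 and -0.21 to 0.16.

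Scaling moved the median of all genes in OA from -0.02 to -0.23 (total counts) or 0.42 (ACTB), and in TN from -0.03 to -0.18 or 0.30. Calls were 405 higher and 253 lower in OA with TMM, 352 and 395 with total counts, and 1341 and 84 with ACTB; in TN they were 527 and 482, 529 and 875, and 1198 and 220. The pro-survival median in OA became 0.28 with total counts, 0.94 with ACTB and 0.41 with 12 libraries in 1 fit. The BH3-only median in OA became 0.31 with total counts and 0.94 with ACTB. In TN the BH3-only median became 0.12 and 0.58 and the pro-survival median 0.089 and 0.57 with total counts and ACTB. The effector median became -0.16 and 0.58 in OA and -0.17 and 0.32 in TN. Members near 0 turned direction. In OA these were BCL2L11 (-0.073) and BAX (-0.036) with total counts, MCL1 (0.42) and BAK1 (0.47) with ACTB, and MCL1 with DESeq2 (0.0012) or its size factors (0.0012). In TN, PMAIP1 (0.047), BCL2L11 (0.14), MCL1 (0.10) and BAK1 (0.13) turned with ACTB, as did the difference between the treatments for BID (0.012) and BAX (0.18). With 1 library left out, log2 fold changes of the members near 0 ranged in OA from -0.16 to 0.30 (BCL2L11), -0.22 to 0.22 (MCL1), -0.032 to 0.40 (BAX) and -0.35 to 0.25 (BAK1), and in TN from -0.62 to 0.16 (PMAIP1) and -0.20 to 0.42 (BAX). The difference between the treatments ranged from -0.11 to 0.41 (BCL2L11), -0.37 to 0.076 (BID), -0.10 to 0.41 (MCL1), -0.096 to 0.50 (BCL2L1), -0.32 to 0.44 (BAX) and -0.18 to 0.35 (BAK1). BBC3, HRK, BIK, BCL2L1 and BID kept their direction in both experiments under every alternative run.

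For the difference between treatments, edgeR called 25 genes with no filter, 2 with GC offsets, 6 with the block and GC offsets and 4 without OA replicate 2, DESeq2 called 2, and no member was called under any alternative run. PMAIP1 also had an unadjusted p of 0.0256 with no filter and 0.0395 with GC offsets, and BBC3 of 0.0405 without TN replicate 1 (edgeR; adjusted p 0.888 to 1). In OA the replicate numbers were not taken as pairing, since r was 0.58, 0.51 and 0.08, although each OA library was most like the DMSO library of its own number. With the block in OA, BBC3, HRK, PMAIP1 and BCL2L1 were called higher and BID lower. Besides the calls given for BIK, BID and BCL2L1, the block changed no member's call in TN.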
